A study of Mus musculus with 80 samples.

Results

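The alleles described here are deletions found by amplicon sequencing at *Ptbp1* splice sites in base-edited Hepa cells that leave the bases on either side of the Cas9 nick in place. Hepa1-6 (Hepa) is a hepatoma line from a C57L mouse. An allele row, 1 distinct outcome in the table of 1 sample, was chosen by the place of its gaps: it had at least 1 run of deleted bases in the aligned window and no run over position 17 or 18 of the protospacer. The rule kept 467 of 11389 allele rows, out of 1012 rows with any deletion. The other 545 rows deleted position 17 or 18 and are called nick-spanning deletions here. The members hold 560 reads, 531 of them in edited samples and 29 in controls. Most were rare, as 394 of the 467 rows had 1 read and no row had more than 5. The rows of 1 table repeat an aligned sequence where reads differ outside the window, so that the 467 rows hold 436 distinct aligned sequences counted within samples. Of the rows, 12 had more than 1 deletion run and 9 also had an insertion.

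Cells were transfected with a plasmid for 1 of 7 sgRNAs and a plasmid for an adenine base editor (ABE), with 400 ng of DNA and 0.5 μl Lipofectamine, and collected 5 d later. Controls received the sgRNA without an editor. The editors join a deaminase, ABEmax or the more active ABE8e, to a Cas9 nickase, either *Sp*Cas, which reads an NGG PAM, or *Sp*G, a variant with a relaxed PAM. Each of the 7 sites received *Sp*G with either deaminase, and the donors of exons 1, 7 and 8 also received *Sp*Cas with either deaminase, which gives 20 edited groups with 60 samples and 7 control groups with 20 samples. Each group had 3 samples, described as biological replicates, except the exon 7 donor control with 2. Samples held 399 to 18227 reads, with a median of 2985.5 in controls and 4083.5 in edited samples, and 2 samples had fewer than 1000 reads. No 2 tables were identical.

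*Ptbp1* encodes polypyrimidine tract binding protein 1, an RNA-binding protein that represses the inclusion of many exons. An intron begins with GT, the donor, and ends with AG, the acceptor, and loss of either dinucleotide disrupts splicing. An ABE converts adenine on the unpaired strand of the protospacer to inosine, which is copied as guanine, while the nickase cuts only the paired strand, opposite the bond between positions 17 and 18. The editor is therefore made to act without a double-strand break. The targeted adenine lies near the other end of the protospacer, away from the PAM.

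The protospacers are shown because every place below is counted on them. They are written 5′ to 3′ on the sgRNA strand, with the targeted splice-site adenine and positions 17 and 18 in capitals.
exon 1 donor: acttAcccgtccatggCAca
exon 3 acceptor: ttctcAgcggggatccGAcg
exon 3 donor: cttAcctgctgaggcaGAgc
exon 7 acceptor: cccacAgtccctggatGGcc
exon 7 donor: cttAccaaaggctgctGCca
exon 8 donor: aatAcctgcggcctgaGGga
exon 9 donor: acatAcctcagggttcAGat
The labels number these sgRNAs 1, 2, 3, 5, 6, 7 and 9 in the order shown. Positions run from 1 at the 5′ base to 20, the window of 40 bases starts at position -9 and ends at position 30, and the base before position 1 is numbered 0. Each window matched the mouse build GRCm39 at 1 place, on chromosome 10, and exons are numbered as in the GENCODE M39 transcript ENSMUST00000172282.8. The exon 1 donor protospacer spans 79690542 to 79690561 on the minus strand and overlaps the annotated untranslated part of exon 1. The exon 3 acceptor protospacer spans 79694579 to 79694598 on the plus strand, and that of the exon 3 donor spans 79694644 to 79694663 on the minus strand. The exon 7 acceptor protospacer spans 79695608 to 79695627 on the plus strand, and that of the exon 7 donor spans 79695775 to 79695794 on the minus strand. On the minus strand, the exon 8 donor protospacer spans 79696014 to 79696033 and that of the exon 9 donor spans 79696790 to 79696809. At every site the target adenine and the base after it form the splice dinucleotide, the bases before it are intronic and the bases beyond the dinucleotide, through position 20, are exonic.

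The first comparison asked whether these deletions were more frequent with an editor than with the sgRNA alone. They made up 0.184% ± 0.124 of reads in the 60 edited samples and 0.0344% ± 0.0252 in the 20 controls (mean ± SD). Averaged over the 7 sites, the edited samples exceeded their controls by 0.130 percentage points (permutation of labels within each sgRNA, two-sided, p = 1e-05, which is the lower limit of 100000 resamples). The excess was 0.0340 points with alleles of at least 2 reads and passed (permutation, p = 0.00908). An allele reaches 2 reads more easily in a deeper sample, and edited samples were deeper (median 4083.5 reads, against 2985.5 in controls). Among 20 edited groups, 19 had a higher mean than the control of their site and in 14 every sample lay above every control sample. With alleles of at least 2 reads, only 4 groups did. No single group could reach significance by itself, because an exact test of 3 samples against 3 has a smallest two-sided p of 0.1, and of 3 against 2 of 0.2 (smallest adjusted p over the 20 groups, 0.154).

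The levels differed by site and editor. At the exon 8 donor, members made up 0.331%, 0.432% and 0.413% of reads in the 3 *Sp*Cas-ABE8e samples and 0.427%, 0.269% and 0.315% in the *Sp*Cas-ABEmax samples. The 3 controls had 0%, 0.0432% and 0.0354%. All 6 *Sp*Cas samples lay above all controls and above all 6 *Sp*G samples of the site, which ranged from 0.0841% to 0.118%. The 95% Wilson interval of the lowest *Sp*Cas sample ran from 0.172% to 0.420% and that of the highest control from 0.00763% to 0.244%, so that single samples overlapped within counting error. The control at 0% had 3036 reads, and its count of 0 allows a share of up to 0.0988%.

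At the exon 7 donor the members made up 0.276%, 0.181% and 0.237% of reads with *Sp*Cas-ABEmax. *Sp*Cas-ABE8e gave 0.230%, 0.393% and 0.190%, against 0% and 0.0734% in the 2 controls. The 6 *Sp*Cas samples did not overlap the controls, whereas the *Sp*G samples, from 0.0691% to 0.275%, reached down to them. At the exon 1 donor, *Sp*Cas-ABEmax gave 0.362%, 0.167% and 0.422%, and *Sp*Cas-ABE8e gave 0.212%, 0.319% and 0.412%. Its controls had 0%, 0.0499% and 0%, below every edited sample. The highest control is 1 read of 2003, and the lowest edited sample, with *Sp*G-ABE8e, is 1 read of 1992. These values rest on few reads: the *Sp*Cas-ABEmax sample at 0.167% is 1 read of 599. The highest sample of all was *Sp*G-ABE8e replicate 3 at this site, with 0.561% from 7 of 1248 reads, while the other 2 samples of that group had 0.0502% and 0.0643%.

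The remaining 4 sites were treated with *Sp*G editors only. At the exon 3 donor, where *Sp*G-ABE8e converted the target adenine in 92.1% to 94.0% of reads, members made up 0.0600%, 0.149% and 0.143%. *Sp*G-ABEmax gave 0.193%, 0.0793% and 0.262% at this site. The controls had 0.0444%, 0% and 0.0842%, so that both edited groups overlapped them. The control at 0% held only 399 reads, which allows up to 0.752%. At the exon 9 donor every edited sample, from 0.0495% to 0.112%, lay above every control, from 0.0180% to 0.0352%.

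The acceptors were less uniform. At the exon 7 acceptor, *Sp*G-ABE8e gave 0.255%, 0.201% and 0.125%, all above the controls at 0.0608%, 0.0527% and 0.0449%. *Sp*G-ABEmax gave 0.0282%, 0.0386% and 0.0437%, all below the controls, and this was the only group with a mean under that of its control. Its samples had guanine at the target adenine in 0.0423% to 0.579% of reads, against 10.8% to 17.8% with *Sp*G-ABE8e. At the exon 3 acceptor, *Sp*G-ABEmax gave 0.0891%, 0.176% and 0.119%, above controls at 0.0449%, 0.0430% and 0.0341%, with target editing of only 1.98% to 2.41%. *Sp*G-ABE8e, with target editing of 34.6% to 37.8%, gave 0.179%, 0.180% and 0%, the last being the only edited sample with no member, which at 1854 reads allows up to 0.162%.

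Members of edited samples were sorted by their place, as aligned, relative to the target adenine. Of the 531 reads, 278 (52.4%) deleted it, 145 (27.3%) lay between it and position 17, 67 (12.6%) lay on its PAM-distal side and 36 (6.78%) lay on the PAM side of the nick, while 5 had runs in more than 1 of these places. Without the exon 8 donor, the share that deleted the target was 160 of 370 reads (43.2%). In controls 1 of 29 reads deleted the target adenine, 8 lay between it and position 17, 15 on the PAM-distal side and 5 on the PAM side. A longer run covers more positions, and 26 of the 29 control reads lacked 1 base, against 130 of 531 edited reads. Place was not compared at equal length. Deletions over the target adenine were 0.0763 percentage points more frequent in edited samples than in controls (permutation test within sgRNAs, adjusted p = 2.67e-05 over 8 classes of members). Those between the target and the nick were 0.0302 points more frequent (permutation, adjusted p = 0.0161). This second call was lost without control replicate 1 of the exon 7 donor (0.0267 points, permutation, adjusted p = 0.0819), which had no member in 2048 reads. It was also lost without replicate 1, 2 or 3 of every group (permutation, adjusted p = 0.0678 to 0.0715) and with alleles of at least 2 reads (0.00925 points, permutation, adjusted p = 0.263). The PAM-distal class differed by 0.0129 points and the PAM-side class by 0.00895 points (permutation, adjusted p = 0.164 for each), neither of which passed the test.

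The place of the members was then read base by base. In each of 20 edited groups, the percentage of reads with a member deletion over each of the 38 window positions other than 17 and 18 was compared with the controls of the site. In 243 of these 760 comparisons (32.0%) every edited sample lay above every control. At the target adenine this held in 13 of 20 groups (65%). At each of positions 6 to 10 it held in at least as many groups, so that the target was not set apart from them. Neighbouring positions share reads and are not independent. Averaged over edited samples, the profile peaked at the target adenine itself, position 4, in the exon 8 donor, where 0.167% of reads lacked it. In the exon 3 donor it peaked at position 2 (0.0906%, against 0.0902% at the target, position 4) and in the exon 9 donor at position 6 (0.0262%, against 0.0238% at the target, position 5). In the exon 7 donor it peaked at position 7, in the adenine run, with 0.123% (0.0245% in controls) against 0.0866% at the target. In the exon 1 donor it peaked at position 10, with 0.154% against 0.108% at the target. The profile of the acceptors peaked at position 3 for exon 7 (0.0495%) and at position -8 for exon 3 (0.0666%), both in the intron before the target. Controls of the exon 7 acceptor had 0.0315% at position 3, and *Sp*G-ABEmax had 0.00728% there. *Sp*G-ABE8e had 0.0916% at position 3 and slightly more, 0.0953%, at position 8, beyond the target, where controls had none.

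The share of members that removed the target ranged widely over the sites and was above 50% at 2 of them. It was 118 of 161 reads (73.3%) at the exon 8 donor, 36 of 58 (62.1%) at the exon 3 donor, 76 of 173 (43.9%) at the exon 7 donor and 24 of 56 (42.9%) at the exon 1 donor. It was 13 of 42 reads at the exon 7 acceptor, 7 of 26 at the exon 9 donor and 4 of 15 at the exon 3 acceptor. These shares also depend on run length, since a longer run covers more positions, and they were not set against a share expected from length. Read by splice-site part, 296 of the 531 reads (55.7%) lost at least 1 base of the splice dinucleotide, 67 (12.6%) lost intronic bases only and 164 (30.9%) lost bases beyond the dinucleotide only. The last class had its largest share at the exon 7 donor, with 84 of 173 reads (48.6%).

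Lengths differed between edited and control samples. In controls 26 of 29 reads (89.7%) lacked a single base, with a median length of 1 base. In edited samples 130 of 531 reads (24.5%) lacked 1 base, 143 (26.9%) lacked 2 to 5 bases, 86 (16.2%) lacked 6 to 10 and 172 (32.4%) lacked 11 or more, with a median of 5 bases inside the window. Deletions of 2 or more bases were 0.116 percentage points more frequent in edited samples (permutation within sgRNAs, adjusted p = 2.67e-05), while deletions of 1 base differed by 0.0148 points and did not pass the test (permutation, adjusted p = 0.164). The rule caps the length on the PAM-distal side at 26 bases in the window, from position -9 to 16. In 126 edited reads (23.7%) the run reached the edge of the window. For 117 of these, in which the run was the only one and the deposited length of the whole amplicon deletion could be used, the median deposited length was 30 bases and the longest 69. Nick-spanning deletions were longer, with a median of 35 bases in the window and 612 of 773 edited reads (79.2%) at its edge.

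The deletions found in several samples are shown because their ends can be compared with the target adenine. The members fell into 267 events, an event being a start and a length at 1 site with other changes ignored and the start taken at its leftmost equivalent place. Of these, 190 occurred in 1 sample, 9 occurred in 5 or more, and 7 (2.62%) were found in all 3 samples of an edited group and in no control of the site. All 7 lay at the donors of exons 7 and 8 in *Sp*Cas groups, and all deleted the target adenine in the placement shown. Among all edited member reads, 73.3% at the exon 8 donor and 43.9% at the exon 7 donor deleted it too. Whether recurrent events delete the target adenine more often than other events was not tested. The deletion of positions 4 to 8 at the exon 7 donor can equally start at position 5, which keeps that adenine. Deleted bases are in capitals within the 40-base window.
exon 8 donor, positions 4 to 10: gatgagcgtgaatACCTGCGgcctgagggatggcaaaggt
exon 8 donor, positions 3 to 6: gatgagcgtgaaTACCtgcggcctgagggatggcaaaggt
exon 8 donor, positions -4 to 7: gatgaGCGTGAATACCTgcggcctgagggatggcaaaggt
exon 8 donor, position 4: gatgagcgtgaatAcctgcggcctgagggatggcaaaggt
exon 8 donor, positions -9 to 16: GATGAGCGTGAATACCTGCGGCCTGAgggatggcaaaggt
exon 7 donor, position 4: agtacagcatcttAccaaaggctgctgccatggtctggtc
exon 7 donor, positions 4 to 8: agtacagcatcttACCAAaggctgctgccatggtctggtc
The deletion of positions 4 to 10 at the exon 8 donor begins at the target adenine and has a single possible placement. It held 12 reads in 7 of 12 edited samples. It made up 0.0301%, 0.0320% and 0.0275% of reads with *Sp*Cas-ABE8e and 0.0178%, 0.0283% and 0.0286% with *Sp*Cas-ABEmax, was found in 1 *Sp*G-ABEmax sample (0.0316%), and in no *Sp*G-ABE8e or control sample. It was thus present in all 6 *Sp*Cas samples, with 1 or 2 reads in each.

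The deletion of positions 3 to 6, which can equally be placed 1 base further, starting at the target adenine, held 10 reads in 5 *Sp*Cas samples of the exon 8 donor, 5 with each deaminase. The deletion of 12 bases from position -4, which has 3 shared bases at its ends, held 7 reads, 6 of them with *Sp*Cas-ABE8e in all 3 samples and 1 with *Sp*Cas-ABEmax. The run from position -9 to 16 held 8 reads in 6 samples, 5 of them with *Sp*Cas-ABEmax. It starts at the window edge, so it can join deletions of different length.

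Loss of the target adenine alone occurred in 15 edited reads of 11 samples and in no control read. Of these 15 reads, 8 came from the exon 8 donor, 4 from the exon 7 donor, 2 from the exon 1 donor and 1 from the exon 3 donor, and 14 came from *Sp*Cas editors. At the 3 donors with both variants, *Sp*Cas samples held 108526 reads and *Sp*G samples 47604. This difference in depth also applies to the 7 events above, and its part in these counts was not tested. At the exon 8 donor it made up 0.0150%, 0.0320% and 0.0275% of reads with *Sp*Cas-ABE8e and 0.0178%, 0% and 0.0286% with *Sp*Cas-ABEmax. At the exon 7 donor it was found in all 3 *Sp*Cas-ABE8e samples, at 0.00549%, 0.0238% and 0.0112%, and in no other. Each of these values is 1 or 2 reads. Of all member reads with a run of 2 or more bases in edited samples, 46 of 401 (11.5%) began at the target adenine as aligned, 24 at the exon 7 donor and 18 at the exon 8 donor, where position 4 was the most frequent start inside the window. The most frequent last base over all sites was read against the window: 73 of 401 (18.2%) ended at position 10, and 39 of these 73 had a single placement. The centre of the deposited window lies between positions 10 and 11, and whether the aligner's settings move ends to that place was not tested.

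The other frequent events were chosen by their mean over edited or control samples of a site. They are shown with the same marking, and the first 3 lie in short repeats.
exon 7 donor, positions 11 to 13: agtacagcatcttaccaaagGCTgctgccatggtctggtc
exon 7 donor, position 7: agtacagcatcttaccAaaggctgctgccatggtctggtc
exon 7 acceptor, position 0: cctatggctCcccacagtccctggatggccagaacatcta
exon 1 donor, positions 2 to 12, protospacer only: aCTTACCCGTCCatggcaca
exon 3 donor, positions -6 to 11: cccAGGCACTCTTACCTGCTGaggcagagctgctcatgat
At the exon 7 donor, loss of 1 GCT unit held 17 reads in 7 of 12 edited samples and none in controls, with 0.0812%, 0% and 0.0747% in the *Sp*Cas-ABEmax samples. The unit is repeated there, and the same sequence results from a start anywhere between positions 11 and 16, so that this deletion can equally be placed over position 17 or 18. Loss of 1 adenine from the run at positions 7 to 9 held 22 edited reads, with a mean of 0.0248% over edited samples, and 2 reads in 1 control, with a mean of 0.0245% over controls. The 2 means were nearly equal.

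At the exon 7 acceptor, loss of 1 cytosine from the run at positions 0 to 3 was found in all 3 controls (0.0456%, 0.0263% and 0.0224%), in all 3 *Sp*G-ABE8e samples (0.0587%, 0.0430% and 0.0125%) and in 1 *Sp*G-ABEmax sample (0.0219%), and the groups overlapped. At the exon 1 donor, loss of positions 2 to 12, which removes the target at position 5, held 8 reads in 5 of 12 edited samples and none in controls. At the exon 3 donor the deletion of 18 bases from position -6 held 5 reads in 2 edited samples, and 5 bases are shared at its ends. At the exon 8 donor a run from the window edge to position 12 held 8 reads in 5 edited samples.

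At the exon 1 donor, 2 bases at the PAM-side edge of the window, positions 29 and 30, were missing in 7 reads of 4 edited samples. The most frequent events of the exon 3 acceptor, from the window edge to positions -3 and 10, held 3 reads each in 1 sample, and the other named event of the exon 3 donor, from the edge to position 16, held 4 reads in 2 samples. The exon 9 donor had no recurrent event of note, as its most frequent ones, a run from the edge to position 8 and loss of an adenine at position 29, held 2 edited reads each in 1 sample. The single base lost at position 12 of the exon 7 acceptor held 2 reads.

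Controls contributed 22 events, of which 19 were of 1 base, and 14 also occurred in edited samples. The most frequent control event per site was a loss of 1 base in 6 of 7 sites. These were the adenine and cytosine runs named above, a guanine from the run at positions 9 to 12 of the exon 3 acceptor (2 reads in 2 controls), and 1 read each at position 3 of the exon 1 donor, position -9 of the exon 3 donor and position -6 of the exon 9 donor. The exception, at the exon 8 donor, was 1 read with a run from position 19 to the window edge.

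The place of the 1-base members in repeats differed by site. Over all sites, a lost base lay in a run of at least 2 identical bases in 22 of 26 control reads (84.6%) and 84 of 130 edited reads (64.6%), where 39.5% and 40.02% of the positions of these windows do, weighted by the reads of each site. It lay in a run of at least 3 in 13 control reads (50%) and 38 edited reads (29.2%), where 13.1% and 11.1% of positions do. The exon 7 donor supplied 37 of the 84 edited reads in runs of at least 2, out of 44 there (84.1%, against 36.8% of positions), and 22 of the 38 in runs of at least 3. At the exon 8 donor 11 of 26 reads lay in runs of at least 2 (42.3%, against 42.1%), and 1 lay in a run of at least 3. At the exon 1 donor 2 of 9 did (22.2%, against 44.7%), and none lay in a run of at least 3. For edited members of 2 or more bases that did not touch the window edge, 167 of 277 reads (60.3%) could be shifted by at least 1 base without changing the sequence, against 46.3% of all possible deletions of the same lengths at the same sites. This too differed by site: the exon 7 donor gave 70 of 102 reads (68.6%, against 43.8%), whereas the exon 1 donor with 12 of 29 (41.4%, against 43.2%) and the exon 7 acceptor with 10 of 20 (50%, against 58.0%) lay below the share of possible deletions. At least 2 shared bases were found in 69 reads (24.9%), against 17.1% of the possible deletions. These shares over reads are a description, since reads of 1 sample are not independent. Compared over samples, members with more than 1 placement were 0.0533 percentage points more frequent in edited samples than in controls (permutation within sgRNAs, adjusted p = 0.000960), and members with a single placement 0.0771 points more frequent (permutation, adjusted p = 2.67e-05).

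The deaminases were compared within site and Cas9 variant. Members were 0.0312 percentage points more frequent with ABE8e than with ABEmax on average over 10 such pairs, which did not pass the test (permutation, p = 0.198). Without *Sp*G-ABE8e replicate 3 of the exon 1 donor, the highest sample of all, the difference was 0.0144 points. ABE8e had the higher mean in 6 of 10 pairs. The largest pair difference, 0.157 points, was at the exon 7 acceptor, where *Sp*G-ABEmax converted the target adenine in 0.0423% to 0.579% of reads. Only in that pair did every ABE8e sample lie above every ABEmax sample. Without runs at the window edge, the mean difference over the 10 pairs was 0.0540 points and passed (permutation, p = 0.00455), with a higher mean for ABE8e in 9 of 10 pairs. Runs at the edge made up 78 of 221 ABEmax reads (35.3%) and 48 of 310 ABE8e reads (15.5%), although their frequency among all reads did not pass the test (-0.0228 points, permutation, adjusted p = 0.197). Members of 1 base were 0.0306 points more frequent with ABE8e (permutation, adjusted p = 0.00719), a call that was lost without replicate 2 (0.0284 points, permutation, adjusted p = 0.0537) and with alleles of at least 2 reads (0.00868 points, permutation, adjusted p = 0.202). Members that removed the target adenine differed by 0.00155 points (permutation, adjusted p = 0.908), but by 0.0272 points without runs at the window edge, which passed (permutation, adjusted p = 0.00877).

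Nick-spanning deletions went the other way. They were 0.249 percentage points less frequent with ABE8e than with ABEmax (permutation, adjusted p = 2.67e-05), with a lower mean in 9 of 10 pairs. Without runs at the window edge the difference was -0.0478 points (permutation, adjusted p = 0.00877). At the exon 7 donor, *Sp*Cas-ABEmax gave 0.722% ± 0.0882 nick-spanning reads and *Sp*Cas-ABE8e 0.0850% ± 0.00760 (SD, n = 3), whereas members made up 0.231% ± 0.0479 and 0.271% ± 0.107. The difference between ABE8e and ABEmax was 0.280 points larger in members than in nick-spanning deletions (permutation, adjusted p = 2.67e-05). The target adenine was converted in more reads with ABE8e at each site, and its part in this result was not tested. The tests of 1-base, edge and target-removing members by editor, and those of nick-spanning deletions, were chosen after the values were seen and adjusted together, 8 tests in all.

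The Cas9 variants were compared at the 3 donors that had both. Members were 0.166 percentage points more frequent with *Sp*Cas than with *Sp*G (permutation within site and deaminase, p = 0.000190), with a higher mean in 6 of 6 pairs and no overlap of samples in 3. The means over samples were 0.310% ± 0.0933 with *Sp*Cas and 0.145% ± 0.117 with *Sp*G (SD, n = 18 each). The difference was largest at the exon 8 donor, where *Sp*Cas-ABE8e exceeded *Sp*G-ABE8e by 0.286 points and *Sp*Cas-ABEmax exceeded *Sp*G-ABEmax by 0.241 points. Members that removed the target adenine were 0.102 points more frequent with *Sp*Cas (permutation, adjusted p = 0.000448), and nick-spanning deletions 0.321 points (permutation, adjusted p = 2.67e-05). A cutoff of 2 reads is easier to reach in deeper samples, and *Sp*Cas samples held 108526 reads against 47604 with *Sp*G. With alleles of at least 2 reads the excess of all members was 0.0501 points (permutation, p = 0.0113), and that of target-removing members, 0.0162 points, did not pass. Target editing moved with these differences: at the exon 8 donor it was 87.8% to 89.6% with *Sp*Cas-ABE8e and 66.8% to 69.1% with *Sp*G-ABE8e, and its part in them was not tested. The difference between ABE8e and ABEmax was not shown to differ between the variants (-0.0136 points, *Sp*Cas minus *Sp*G, permutation, p = 0.869).

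Against controls, nick-spanning deletions rose by 0.215 percentage points (permutation within sgRNAs, adjusted p = 0.000448), to 0.253% ± 0.281 in edited samples from 0.00761% ± 0.0163 in controls. The increase in members was 0.0844 points smaller than that in nick-spanning deletions, which did not pass the test (permutation, p = 0.0969), and the sign turned without runs at the window edge (0.0388 points, permutation, p = 0.131). Leaving out those runs removes 79.2% of edited nick-spanning reads but 23.7% of edited member reads, so it lowers the 2 kinds unequally. The border between the 2 kinds is set by the rule. Just inside it, 22 member rows with 29 edited reads and no control read ended at position 16, and 7 rows with 6 edited reads and 1 control read began at position 19. Just outside it, 33 rows with 50 edited reads and 1 control read ended at position 17, and 6 rows with 5 edited reads and 1 control read began at position 18. An equivalent placement would move 26 member rows with 35 edited reads onto position 17 or 18.

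A last comparison asked whether reads with a member deletion that kept the target adenine also carried the edit. In edited samples 102 of 251 such reads (40.6%) had guanine there, where the undeleted reads of the same samples, weighted alike, would give 57.8%. In the 21 samples with at least 5 such reads, the mean was 42.3% in deleted reads and 59.1% in undeleted reads, lower in 15 samples and higher in 6. The mean difference was -16.8 percentage points ± 31.4 (SD, n = 21) and passed a two-sided permutation test that flips the sign of each sample (p = 0.0229). It no longer passed without replicate 1 (-20.3 points, permutation, p = 0.0529) or without replicate 3 (-9.03 points, permutation, p = 0.239). By place, 48 of 143 reads (33.6%) with a deletion between target and nick carried guanine, against 63.0% in undeleted reads. The values were 30 of 67 (44.8%) against 51.9% for the PAM-distal side and 23 of 36 (63.9%) against 49.3% for the PAM side, and these 3 places were not tested against each other.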

How the data were processed

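Genomic DNA of Hepa cells was sequenced as amplicons of 7 *Ptbp1* splice sites. The authors used CRISPResso2 (version not given in the sources used here) to align each amplicon and deposited 1 table per sample. The deposited values used are the count of reads of each allele and the count of deleted bases of each allele, neither normalized, and the percent of reads, which is the count over the sum of the table. Replicates were not pooled by the authors. The labels gave the sgRNA, the Cas9 variant and the deaminase that define a group, where ABE without a version was read as ABEmax. The members, classes and tests were chosen with earlier results of these data known.

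Windows of sgRNAs 1, 3, 6, 7 and 9 were reverse-complemented, and bases were numbered on the 40-base reference of the site also where an insertion had shifted the row. A deletion was counted once, by all its runs. Its length is that of its longest run, it was classed as in a repeat where that run can be placed at more than 1 start, and the deposited number of deleted bases was used only for runs at the window edge, not in the first *Sp*Cas-ABE8e sample of the exon 7 donor, whose table counts on another basis. Percentages per sample were compared by permuting labels within strata (100000 resamples, two-sided), single groups by exact permutation, with Benjamini-Hochberg adjustment within families. The 8 classes against controls form 1 family, the 20 single groups another. Named events were, per site, the 2 with the highest mean over edited samples, the 1 with the highest mean over controls, and up to 10 found in all 3 samples of an edited group and in no control. Wilson intervals (95%) and the limit of 3 reads for a count of 0 cover counting error only, because no molecular identifiers were used and several PCR reads can come from 1 molecule. Python 3.11.15, numpy 2.4.6 and scipy 1.17.1 were used. On simulated tables the counts of members and of nick-spanning deletions were recovered, while the 8 classes of members were not checked. The permutation test within sgRNAs rejected somewhat more often than its nominal rate at the unequal depths of these samples. No reads or samples were left out of the frequencies per sample. The comparison of target editing used the 21 edited samples with at least 5 member reads that kept the target, and left out the other 39.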

Additional observations from a re-analysis of the deposited data

Results flagged for a closer look

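At the exon 7 acceptor the 2 edited groups moved in opposite directions from the same 3 controls. All *Sp*G-ABEmax samples lay below all controls (difference of means -0.0159 percentage points) and all *Sp*G-ABE8e samples lay above them. The difference between these opposite directions was tested only as ABE8e against ABEmax at this site (0.157 points, exact permutation test of 3 samples against 3, p = 0.1, the smallest it can give). *Sp*G-ABEmax had 5 member reads, the controls 10 and *Sp*G-ABE8e 37, and the groups share the controls.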

How the results depend on the processing

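Of 14 alternatives, 13 gave values, because no member reached 0.2% of the reads of its sample. The increase over controls of all members, of those over the target adenine, of those of 2 or more bases and of those with a single placement, and the excess of *Sp*Cas over *Sp*G, kept their direction and passed in each of the 13 that tests them, and when each of 80 libraries was left out in turn, an alternative added after seeing the data. Their sizes moved: with alleles of at least 2 reads they were 0.0340, 0.0213, 0.0321, 0.0207 and 0.0501 points in this order, and without runs at the window edge 0.0888, 0.0454, 0.0737, 0.0462 and 0.147 points. With alleles of at least 2 reads, the increase between target and nick was 0.00925 points and that in repeats 0.0133 points, neither of which passed, 4 groups in place of 14 lay above their controls, the members rose 0.0676 points less than nick-spanning deletions (-0.0676, which then passed) and target editing in deleted reads differed by -28.2 points over 5 samples, too few for the sign-flip test to pass (smallest exact p = 0.0625). Without replicates 1, 2 or 3 the increase between target and nick was 0.0265 to 0.0323 points and passed in none of them, and target editing differed by -20.3 to -9.03 points. It was -14.5 points and did not pass where members with an equivalent placement on position 17 or 18, or runs over positions 16 to 19, were left out (p = 0.0707 and p = 0.0527, permutation). Without runs at the window edge, ABE8e exceeded ABEmax by 0.0540 points, which then passed, and the comparison with nick-spanning deletions changed sign to 0.0388 points. Members over the target adenine, ABE8e minus ABEmax, turned to -0.00487 points without samples under 1000 reads and ranged from -0.0173 to 0.0225 points without replicates 1, 2 or 3 (-0.000555 without replicate 1), and reached 0.0272 points and passed without runs at the edge. Chosen after the values were seen, the excess of ABE8e in 1-base members no longer passed without replicate 2 (0.0284 points) or with at least 2 reads (0.00868 points), nor did that of *Sp*Cas over *Sp*G in target-removing members with at least 2 reads (0.0162 points). For none of these changes was the cause tested. The cutoff of 2 reads is easier to reach in deeper samples, and edited and *Sp*Cas samples were deeper. Leaving out runs at the window edge removes 79.2% of edited nick-spanning reads and 23.7% of edited member reads.

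With the replicate number as a replicate block, the increase of members over controls was 0.128 points and the excess of *Sp*Cas over *Sp*G 0.166 points, and no call changed. The numbers do not pair the samples, since same-numbered samples of a site had a median correlation of their deviations of -0.0159, with 48 of 122 pairs above 0.1. Depth limits single events: at the median of 3799.5 reads, few members have more than 1 read.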

Other observations

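Reads whose deposited count of deleted bases was above 0 but whose window showed no gap lay outside the window described above. They made up 0.224% of reads on average in edited samples (range 0% to 0.753%) and 0.235% in controls (0% to 0.566%), a difference of -0.0293 percentage points over sites that did not pass the test (permutation within sgRNAs, p = 0.251, chosen after seeing the data). In the first *Sp*Cas-ABE8e sample of the exon 7 donor, whose table counts on another basis, there were none.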
